A study of Mus musculus with 11 samples.

Results

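Eosinophils are white blood cells that enter the airways in allergic inflammation. They carry granules packed with toxic, strongly basic proteins, and they depend on the cytokine IL-5 for their production and survival. The genes described here are 9 that mark these cells. Prg2 encodes major basic protein, the core of the granule, and Prg3 encodes a second form of it. Epx encodes eosinophil peroxidase. Ear1, Ear2, Ear6 and Ear11 encode eosinophil-associated ribonucleases, a mouse family of closely related secreted enzymes, some of which macrophages of the lung also express. Il5ra encodes the IL-5-binding chain of the IL-5 receptor, and Siglecf encodes a sialic acid-binding surface receptor that is found on mouse eosinophils and also on resident alveolar macrophages.

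The genes were found by the gene name that the array design gives each probe. Of the 9 genes, 8 had at least 1 probe and together they had 9 probes, because Ear6 had 2. No probe was named Ear2, although the RefSeq transcript of Ear2 is among the 4 that the design lists for each of the probes named Ear3 and Ear10. Of the 27962 gene names on the array, 22087 passed a filter on dim probes and were tested, and 7 of the 9 genes were among them. Epx was left out of the test because its probe was well above background on 1 array only.

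The series measured total lung RNA of mice on 11 one-colour arrays. The groups were Foxa3 KO lungs after OVA (ovalbumin) challenge (KO OVA, 3 arrays), littermate control lungs after OVA (WT OVA, 3 arrays), Foxa3 KO lungs after saline (KO saline, 2 arrays) and littermate control lungs after saline (WT saline, 3 arrays). The labels give no strain, age, sensitisation schedule or deleted part of Foxa3, and they do not say whether each array holds 1 animal, so p-values measure the spread between these samples, which may be partly technical. Every level below is the log2 processed signal minus the 75th percentile of the same array, and levels of different probes are not comparable with each other.

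The probe sequences show what each measurement reads, and how far the ribonuclease probes overlap. Each is the 60-base probe of the array design, 5′ to 3′. The capitals in the Ear3 and Ear10 probes mark a run of 31 bases that both hold. The Ear3 probe and the first Ear6 probe share 49 identical bases of 60 when laid side by side without gaps, with a longest common run of 17 bases.
Prg2: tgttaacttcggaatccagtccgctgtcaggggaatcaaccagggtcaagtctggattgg
Siglecf: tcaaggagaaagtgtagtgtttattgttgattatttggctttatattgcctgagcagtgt
Ear11: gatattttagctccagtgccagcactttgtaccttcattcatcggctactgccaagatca
Ear1: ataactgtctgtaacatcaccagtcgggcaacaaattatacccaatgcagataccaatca
Ear6, first probe: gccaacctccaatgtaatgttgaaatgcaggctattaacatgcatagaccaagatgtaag
Ear6, second probe: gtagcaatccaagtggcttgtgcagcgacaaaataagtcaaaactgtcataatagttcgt
Ear3: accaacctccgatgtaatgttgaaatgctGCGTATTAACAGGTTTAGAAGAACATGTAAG
Ear10: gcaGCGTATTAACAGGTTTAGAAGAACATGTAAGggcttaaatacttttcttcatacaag

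The array design places the probes on the mm7 build of the mouse genome. The Prg2 probe lies at chr2:84826358-84826417 on the plus strand, and the Prg3 probe lies a short way downstream, at chr2:84835227-84836736 on the plus strand. That second interval spans 1510 bases for a probe of 60. The Siglecf probe lies at chr7:39534617-39534676 on the plus strand, the Epx probe at chr11:87934694-87934753 on the minus strand and the Il5ra probe at chr6:106805113-106805172 on the minus strand. The ribonuclease probes lie on chromosome 14. Ear1 is at chr14:39808157-39808216 and Ear11 at chr14:46589069-46589128, both on the minus strand. The Ear6 probes are at chr14:47187804-47187863 and chr14:47187913-47187972, both on the plus strand. The Ear3 and Ear10 probes are placed on unassigned sequence. Each probe is annotated to a transcript of its gene, and the Ear3 and Ear10 probes to the same 4 transcripts, that of Ear2 among them. Whether a probe falls in coding sequence or a UTR was not analysed here.

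Foxa3 itself was checked first. Its probe was not well above background on any of the KO arrays and well above it on all WT arrays. The level was at least 12.6-fold lower in KO OVA than in WT OVA (limma, adjusted p = 0.000361), and at least 2.28-fold lower in KO saline than in WT saline (limma, adjusted p = 0.0328). These bounds set the KO arrays at the lowest signal measured above background. The arrays lay on 3 slides, each of which held 1 array of every group except the slide numbered 3, which held no KO saline array. WT OVA 1 stood apart from the other OVA arrays on the third principal component, at -67.2 against a range of -6.95 to 21.1. For the members, values without it are therefore given where they changed a call or moved the fold by over 1.5 times. Of the other genes only Ear5 is given without it, whether or not the rest moved.

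After OVA challenge Prg2 rose and Siglecf fell in both genotypes, and no other member passed the test in either. Of the 7 members tested, 1 rose and 1 fell in KO lungs, where 8.18 percent of all genes tested passed (6.17 percent higher and 2.01 percent lower), and 1 rose and 1 fell in WT lungs, where 19 percent passed (10.5 percent higher and 8.51 percent lower). The median OVA difference over the 7 members was 1.17 on the log2 scale in KO lungs and 0.94 in WT lungs, beside -0.03 and 0.00080 over all genes tested. The median in KO lungs was the value of the first Ear6 probe. It would be lower with the second Ear6 probe (0.28) or with an Ear11 spot kept that was set aside as an outlier. At an unadjusted p under 0.05 there were 4 members in KO lungs, where 30.4 percent of all genes fell under it, and 4 in WT lungs, where 36.5 percent did. In KO lungs 4 members were higher in every OVA array with a value than in any saline array and 1 was lower, beside 23.3 and 26 percent of all genes. The 4 included Ear11, read on 2 of 3 KO OVA arrays only, and Ear6 by its first probe, whereas its second probe overlapped. In WT lungs 2 were higher and 1 was lower, beside 21.2 and 21.5 percent of all genes. In whole lung, a difference in the number of cells of a type and a difference in RNA per cell cannot be told apart.

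Among the granule proteins, Prg2 had the largest OVA difference of the members in either genotype. Its levels were -1.04, -1.39 and -1.03 in KO OVA, -3.02, -0.64 and -1.70 in WT OVA, -5.16 and -4.76 in KO saline, and -4.83, -4.97 and -4.61 in WT saline. Every OVA array was above every saline array. The 3 KO OVA arrays lay close together (SD 0.21, n = 3), whereas the WT OVA arrays spread widely (SD 1.19, n = 3) with WT OVA 1 lowest. In KO lungs Prg2 was 14.0-fold higher after OVA than after saline (log2 difference 3.81 ± 0.54 SE, limma, adjusted p = 0.00634). In WT lungs it was 8.09-fold higher (3.02 ± 0.48 SE, limma, adjusted p = 0.00639). Within slides the log2 difference was 3.73 and 4.14 in KO lungs, and 3.13, 1.96 and 3.97 in WT lungs, so each slide showed the rise. Without WT OVA 1 the difference in WT lungs was 3.63, or 12.4-fold (adjusted p = 0.000939). Without the arrays of slide 1 the call was lost in both genotypes, at log2 differences of 3.96 in KO lungs and 2.96 in WT lungs. In KO lungs it was lost also without KO saline 1 (3.61). Both settings leave 1 KO saline array, and far fewer of all genes tested passed in these comparisons as well.

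Prg3 was far dimmer. Its levels were -5.99, -7.28 and -6.67 in KO OVA, -7.70, -6.22 and -5.75 in WT OVA, -7.33 and -6.58 in KO saline, and -7.10, -8.65 and -9.27 in WT saline. The probe was well above background on 2 of 3 KO OVA arrays, 2 of 3 WT OVA arrays, 1 of 2 KO saline arrays and none of the 3 WT saline arrays, and OVA and saline overlapped in both genotypes. The OVA difference was 0.31 ± 0.73 SE in KO lungs (limma, adjusted p = 0.823). In WT lungs the level after OVA was at least 2.63-fold higher than after saline when background alone is allowed for, without passing. The fitted difference was 1.78 ± 0.65 SE, with a 95% interval of 0.30 to 3.27 (limma, adjusted p = 0.0836). It passed under 4 alternatives, namely without WT OVA 1 (2.36, adjusted p = 0.0272), with normexp background (0.53, adjusted p = 0.0179), with quantile scaling (1.70, adjusted p = 0.0432) and with slide as a block (1.78, adjusted p = 0.0423).

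Epx was at or near background throughout. Its levels were -6.82, -7.89 and -7.03 in KO OVA, -7.84, -6.73 and -7.00 in WT OVA, -8.85 and -7.42 in KO saline, and -8.00, -9.49 and -8.18 in WT saline. The 1 array on which it was well above background was KO OVA 3. No OVA difference is given for Epx, because the groups compared were at background on all or nearly all arrays.

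**Figure D1:**
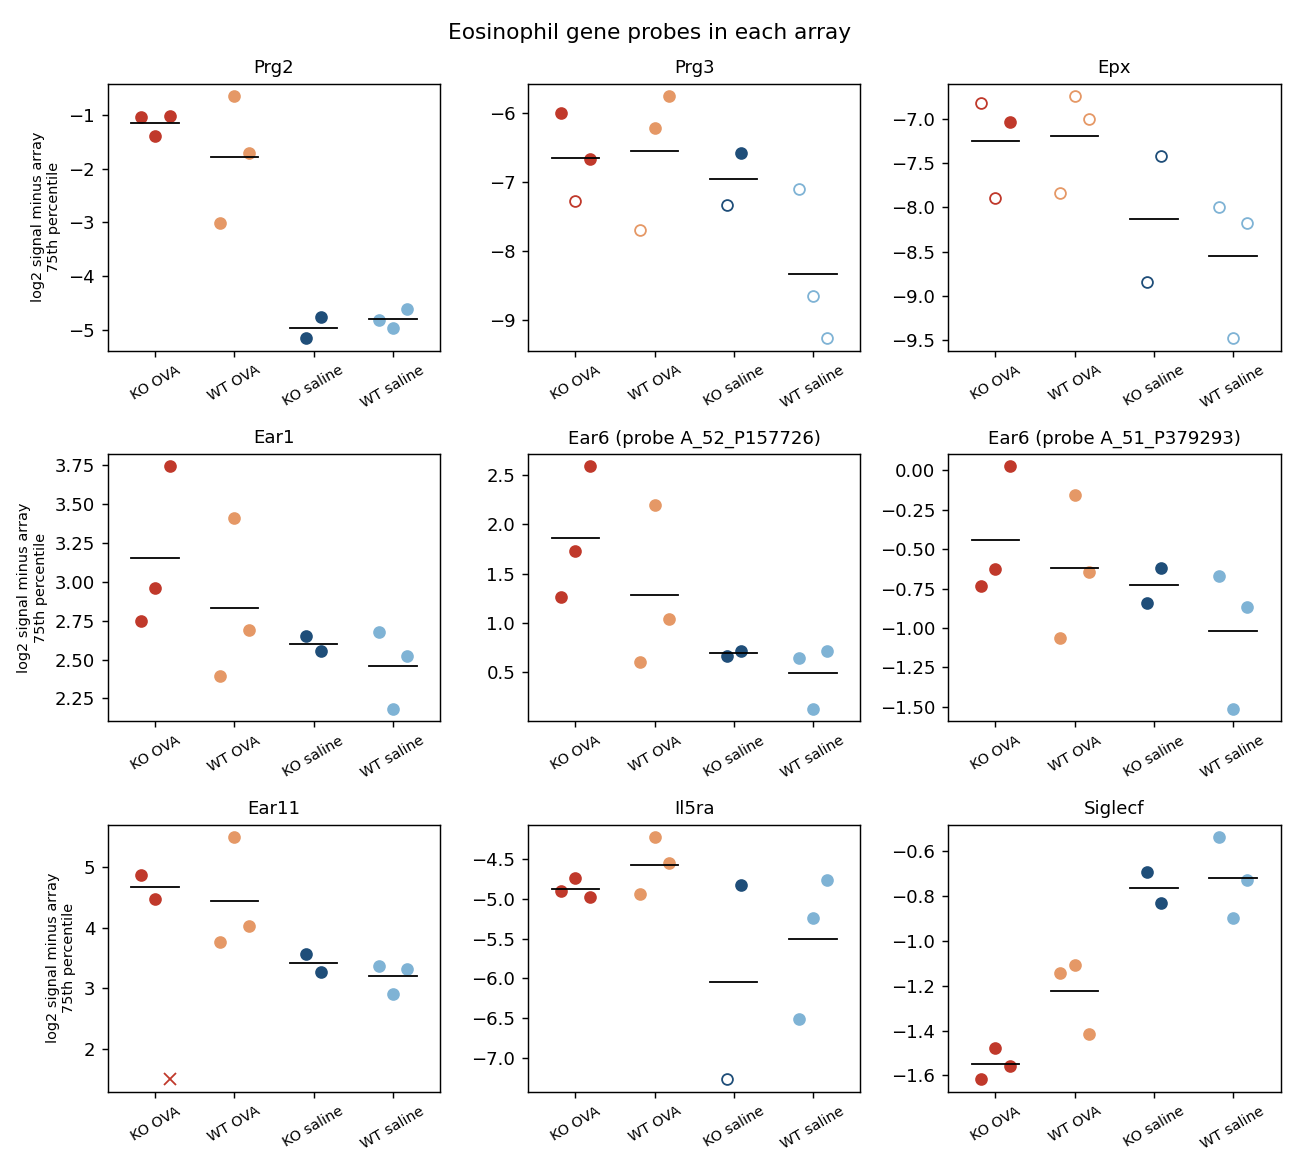
Level of each member probe in every array (log2 processed signal minus the array's 75th percentile, vertical axis, with a scale of its own per panel) in KO OVA, WT OVA, KO saline and WT saline lungs. Probe A_52_P157726 is the first Ear6 probe and A_51_P379293 the second. Filled points are well above background, open points are not, the cross is the Ear11 spot set aside as an outlier, and bars are group means. Prg2 is higher in every OVA array than in any saline array, Siglecf is lower in every OVA array, and the Ear probes of the OVA groups reach down to the saline arrays or close to them.

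The ribonuclease probes were bright in lungs given saline, and none of the member ribonucleases passed the test for OVA. Ear11 stood at 4.86 and 4.48 in KO OVA, 3.76, 5.50 and 4.03 in WT OVA, 3.57 and 3.27 in KO saline, and 3.38, 2.90 and 3.32 in WT saline. All OVA arrays used were above all saline arrays. The scanner software marked the Ear11 spot of KO OVA 3 as an outlier, so that array was left out of the fit. The OVA difference was 1.25 ± 0.51 SE in KO lungs (limma, adjusted p = 0.145) and 1.23 ± 0.42 SE in WT lungs (limma, adjusted p = 0.0722). The marked spot had a level of 1.5, below every saline array, although the other 3 member ribonuclease probes were at their highest on that array. With it kept, a choice made after seeing the data, the OVA difference in KO lungs was 0.19. Without WT OVA 1 the difference in WT lungs was 1.57 and passed (adjusted p = 0.0295), and without WT OVA 2, which changes the shared spread, the unchanged difference in KO lungs passed (adjusted p = 0.0229).

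Ear1 and Ear6 showed smaller differences. Ear1 levels were 2.75, 2.96 and 3.74 in KO OVA, 2.40, 3.41 and 2.69 in WT OVA, 2.65 and 2.56 in KO saline, and 2.68, 2.18 and 2.52 in WT saline. The KO OVA arrays were all above the KO saline arrays, and the WT groups overlapped. The OVA difference of Ear1 was 0.55 ± 0.35 SE in KO lungs and 0.37 ± 0.31 SE in WT lungs (limma, adjusted p = 0.321 and 0.428). The first Ear6 probe, the brighter, was at 1.26, 1.72 and 2.59 in KO OVA, 0.60, 2.20 and 1.04 in WT OVA, 0.66 and 0.72 in KO saline, and 0.64, 0.12 and 0.71 in WT saline. Again the KO groups did not overlap and the WT groups did. Its OVA difference was 1.17 ± 0.49 SE in KO lungs and 0.79 ± 0.44 SE in WT lungs (limma, adjusted p = 0.144 and 0.224). The second Ear6 probe gave 0.28 ± 0.34 SE in KO lungs and 0.40 ± 0.30 SE in WT lungs, so the 2 probes of this gene differed most in KO lungs. The KO groups of the second probe overlapped, at -0.73 on KO OVA 1 and -0.62 on KO saline 2.

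The other ribonucleases on the array were Ear3, Ear5, Ear10 and Ear14. Ear5 was not well above background on any saline array. It stood at -5.91, -5.73 and -3.85 in KO OVA, and at -7.80, -5.18 and -6.01 in WT OVA, where WT OVA 1 was again not above background. With background alone allowed for, Ear5 was at least 4.17-fold higher after OVA in KO lungs and at least 3.56-fold in WT lungs. In KO lungs it passed (limma, adjusted p = 0.045), a call lost under 15 alternatives. In WT lungs it did not pass (limma, adjusted p = 0.101), and the 95% interval of its log2 difference was 0.22 to 3.64. Without WT OVA 1 the fitted difference of Ear5 in WT lungs was 2.66 and passed (adjusted p = 0.0235), beside 1.93 with it, and it passed also with normexp background. Ear3 had an OVA difference of 1.00 ± 0.42 SE in KO lungs and 0.74 ± 0.37 SE in WT lungs, and Ear10 had 0.90 ± 0.42 SE in KO lungs and 0.67 ± 0.38 SE in WT lungs. Neither passed. Ear14 was not well above background on any array.

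**Figure D2:**
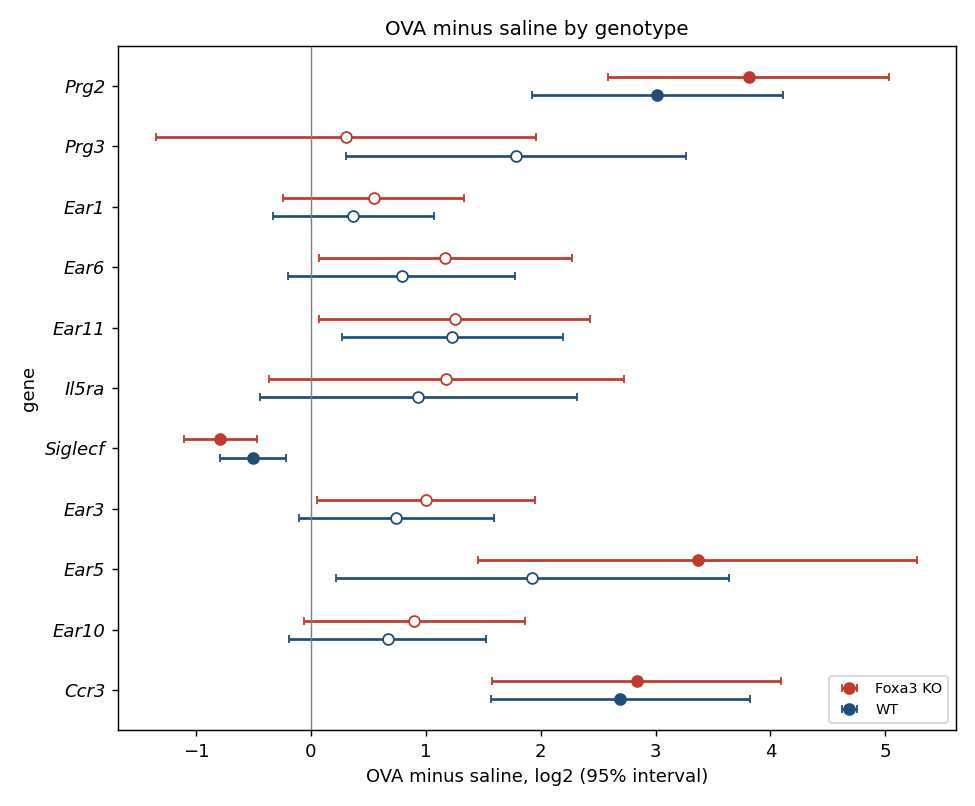
OVA minus saline difference (log2, horizontal axis, with 95% interval) for the 7 members tested and for Ear3, Ear5, Ear10 and Ccr3, in Foxa3 KO lungs (upper of each pair) and WT lungs (lower). Filled points passed an adjusted p of 0.05. Prg2 and Ccr3 lie to the right of 0 and Siglecf to the left in both genotypes, and the intervals of the 2 genotypes overlap for every gene drawn.

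Of the surface receptors among the members, Siglecf passed the test and Il5ra did not. Siglecf stood at -1.62, -1.48 and -1.56 in KO OVA, -1.14, -1.11 and -1.42 in WT OVA, -0.69 and -0.83 in KO saline, and -0.54, -0.90 and -0.73 in WT saline. Every OVA array was below every saline array. Siglecf was 1.73-fold lower after OVA in KO lungs (log2 difference -0.79 ± 0.14 SE, limma, adjusted p = 0.0142) and 1.42-fold lower in WT lungs (-0.50 ± 0.13 SE, limma, adjusted p = 0.0291). Within slides the difference was -0.78 and -0.86 in KO lungs, and -0.88, -0.25 and -0.38 in WT lungs. The call was lost under 6 of 24 alternatives in KO lungs and 7 of 24 in WT lungs, and the direction held in all of them. In KO lungs the arrays whose removal ended the call were KO saline 1, KO saline 2 and KO OVA 3, with differences of -0.72 to -0.86. In WT lungs they were WT saline 1, WT saline 3, WT OVA 2 and WT OVA 3, with differences of -0.41 to -0.56.

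Il5ra was dim and did not pass. Its levels were -4.90, -4.73 and -4.98 in KO OVA, -4.94, -4.22 and -4.55 in WT OVA, -7.27 and -4.82 in KO saline, and -6.52, -5.24 and -4.76 in WT saline. The OVA arrays lay close together and the saline arrays were scattered, so that the groups overlapped in both genotypes. The OVA difference was 1.18 ± 0.68 SE in KO lungs and 0.94 ± 0.61 SE in WT lungs (limma, adjusted p = 0.277 and 0.302). In KO lungs it rested on KO saline 1, the only array where Il5ra was not well above background, and was -0.05 without it.

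Some markers of other cells passed for OVA too, and their part in the Siglecf and ribonuclease values was not tested. Beside the counts that follow, 6.17 percent of all genes tested rose and 2.01 percent fell in KO lungs. In WT lungs 10.5 percent rose and 8.51 percent fell. The neutrophil counts, and the mast cell and basophil counts in WT lungs, were near these shares. Of 16 alveolar macrophage markers tested, 6 rose and 2 fell in KO lungs, and 4 rose and 3 fell in WT lungs. Fabp1, a fatty acid-binding protein, fell by 4.32 on the log2 scale in KO lungs and by 3.55 in WT lungs, while Itgax, the integrin CD11c, rose by 2.09 in KO lungs and by 1.65 in WT lungs. Their summed scaled signal ranged over 78.9 to 99.8 in KO OVA, 75.6 to 83.7 in WT OVA, 81.7 to 82.7 in KO saline and 71.2 to 77.7 in WT saline, and all 16 were above background in every group. Of 11 monocyte and recruited macrophage markers, 7 rose in KO lungs and 10 in WT lungs. Their summed signal ranged over 112 to 166 in KO OVA and 139 to 205 in WT OVA, against 77.2 to 81.5 in KO saline and 74.9 to 82.1 in WT saline. Sums of this kind are weighted to the brightest probes, for these markers Ly6c, and do not measure cell number. Of 13 neutrophil markers, 1 rose in each genotype, and it was Ltf, encoding lactoferrin. Of 12 mast cell and basophil markers, 2 rose in KO lungs, and 1 rose and 1 fell in WT lungs. Those in KO lungs were Mcpt8 and Cpa3, named after their values were seen. In WT lungs they were Mcpt2, which was not above background in WT saline and lost its call under 16 of 23 alternatives, and Kit, which lost its call under 6 of 24. Of 9 lung tissue markers, the endothelial gene Pecam1 fell in KO lungs (-0.50 ± 0.11 SE), and Pecam1 (-0.47 ± 0.09 SE) and Cdh5 fell in WT lungs.

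The rest of the eosinophil pathway was read from lists of its ligands, receptors, enzymes and lineage factors. Of 7 ligands tested, 4 rose in KO lungs and the same 4 in WT lungs, beside 6.17 and 10.5 percent of all genes that rose. The 4 were Il5, the eosinophil growth factor, the eotaxins Ccl11 and Ccl24, and the chemokine Ccl7. Ccl24 had an OVA difference of 6.68 ± 1.21 SE in KO lungs and 5.40 ± 1.08 SE in WT lungs. Ccl11 had 3.55 ± 0.63 SE in KO lungs and 3.35 ± 0.56 SE in WT lungs. Il5 was not well above background on either KO saline array and was at least 3.41-fold higher in KO OVA. In WT lungs, where it was above background on 2 of 3 WT OVA and 1 of 3 WT saline arrays, its difference was 2.09 ± 0.53 SE. The Il5 call was lost under 9 of 24 alternatives in KO lungs and 10 of 24 in WT lungs, and the Ccl24 call under 6 of 24 in KO lungs and 3 of 24 in WT lungs.

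Of 15 other receptors and adhesion molecules tested, 3 rose in KO lungs and 11 in WT lungs, and none fell, beside 6.17 and 10.5 percent of all genes that rose. Their median OVA difference was 0.89 in KO lungs and 0.95 in WT lungs. In KO and WT lungs 10 and 12 of the 15 were higher in every OVA array, beside 23.3 and 21.2 percent of all genes. Of the 11 monocyte and recruited macrophage markers, 7 rose in KO lungs and 10 in WT lungs. How far cells other than eosinophils contributed to the receptor counts was not tested. None of the 15 passed the test of the difference between the genotypes (limma), where 0.00453 percent of all genes did. At an unadjusted p under 0.05 there were 0 of the 15, beside 2.56 percent of all genes. Ccr3, the eotaxin receptor, was at -2.23, -2.20 and -2.28 in KO OVA and at -3.48, -1.47 and -2.20 in WT OVA. As with Prg2, the KO OVA arrays were nearly level and WT OVA 1 was lowest. The OVA difference of Ccr3 was 2.83 ± 0.56 SE in KO lungs (limma, adjusted p = 0.0207, lost under 7 of 24 alternatives) and 2.69 ± 0.50 SE in WT lungs (limma, adjusted p = 0.0113). A second, dim Ccr3 probe gave 1.67 ± 0.92 SE in KO lungs and 0.77 ± 0.82 SE in WT lungs and did not pass. Of 6 lipid mediator enzymes, 3 rose in KO lungs and 4 in WT lungs, among them Alox15, the 12/15-lipoxygenase, at 3.27 ± 0.50 SE in KO lungs and 2.72 ± 0.45 SE in WT lungs. None of 8 lineage factors passed in either genotype (limma). At an unadjusted p under 0.05 there were 3 in KO lungs and 1 in WT lungs, beside 30.4 and 36.5 percent of all genes. Gata2, a factor of early granulocyte and mast cell precursors, had differences of -0.81 ± 0.32 SE in KO lungs and -0.88 ± 0.29 SE in WT lungs.

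The arrays of one group differed in most eosinophil genes together. Of the 9 member probes, 6 were at their lowest among the 6 OVA arrays on WT OVA 1, while 17.6 percent of all genes tested were lowest there. They were those of Prg2, Prg3, Ear1 and Ear11 and both Ear6 probes. Over all genes too, WT OVA 1 and KO OVA 2 lay nearest the saline arrays on the first principal component. Their values were 13.2 and 13.9, against 42.9 to 66.7 for the other OVA arrays. Among the WT OVA arrays, Fabp1 and Itgax were also least changed on WT OVA 1 (0.03 and 3.09), while Ltf was highest there (3.56). Low values on WT OVA 1 were thus not particular to eosinophil genes. WT OVA 2 was the highest OVA array for 5 of the 9 probes, beside 13 percent of all genes tested. KO OVA 3 was the highest for Ear1 and both Ear6 probes. The arrays with the lowest and the highest values of most members were thus both WT OVA arrays. Siglecf did not follow, since WT OVA 1 and WT OVA 2 had nearly the same level of it.

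**Figure D3:**
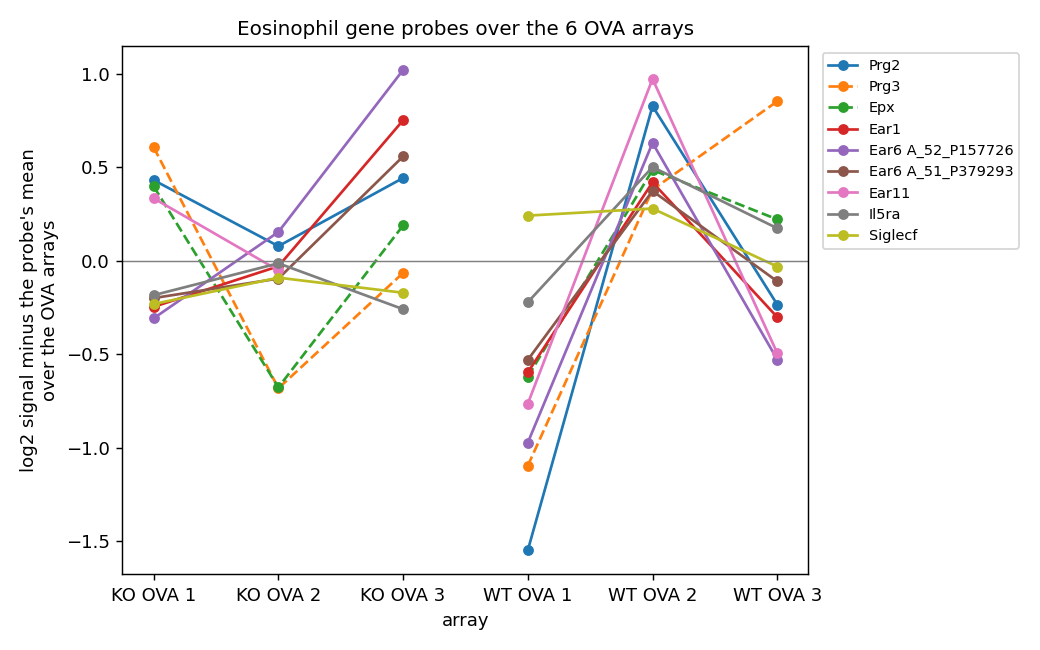
Level of each member probe in the 6 OVA arrays (log2, vertical axis) after subtraction of the probe's own mean over them, with KO OVA arrays at the left and WT OVA arrays at the right. Lines join the arrays of a genotype for legibility only, and dashed lines mark Prg3 and Epx, the dimmest probes. WT OVA 1 is below 0 for every probe except Siglecf, and WT OVA 2 is above 0 for every probe.

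The profiles of Ear1, Ear3, Ear6 and Ear10 over the arrays lay close together, and that of Ear5 lay nearer to Ccr3, Prg2 and Ear11. Likeness was measured as the root mean square difference between profiles, each centred on its own mean, so a smaller value is a closer match. It is a description only. Ear3 and Ear10, whose probes share 31 bases, differed by 0.07 over 11 arrays. Ear6 differed from Ear3 by 0.13 and from Ear10 by 0.16, and Ear1 differed from Ear10 by 0.21. The design lists the same 4 transcripts for the Ear3 and Ear10 probes, so these are not separate measurements of 2 genes. The Ear3 probe and the first Ear6 probe have sequences that share long runs of bases. For that pair, binding of one gene's RNA to the other's probe cannot be told apart from levels that move together. The Ear1 and Ear10 probes share no run longer than 5 bases. The first Ear6 probe and the Ear10 probe share none longer than 8, but 26 identical bases of 34 without gaps. The 2 probes of Ear6 itself share no run longer than 5. Probes were compared with each other and not with the transcripts of other genes. For these pairs too, such binding therefore cannot be told apart from levels that move together. Ear5 was 0.70 from Ccr3, 0.72 from Prg2 and 0.76 from Ear11, and 0.96 to 1.24 from Ear1, Ear3, Ear6 and Ear10. Its profile is limited by background, since it was not well above it on any saline array or on WT OVA 1. Prg2 was 0.46 from Ccr3, 1.11 from Ear11, 1.40 from Prg3 and 2.12 from Siglecf.

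The nearest profiles were sought among the genes tested that carry a gene symbol. Names that were accession, clone or predicted-gene identifiers were left out of the search and of its medians. The 4 profiles nearest to Prg2 were Ccl11 at 0.28, Tnfrsf9 at 0.28, Rrm2 at 0.35 and Ppil5 at 0.35, where the median gene was at 1.82. Among the nearest to Siglecf were Clk2 at 0.093, Hsdl1 at 0.12 and Jub at 0.13, where the median gene was at 0.43. The 4 nearest to Ear11, over the 10 arrays with a value, were Mrc1 at 0.25, Serpina3m at 0.25, Bhlhb2 at 0.26 and Ccr1 at 0.28, where the median gene was at 0.83. Mrc1 encodes the macrophage mannose receptor and is on the alveolar macrophage list.

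**Figure D4:**
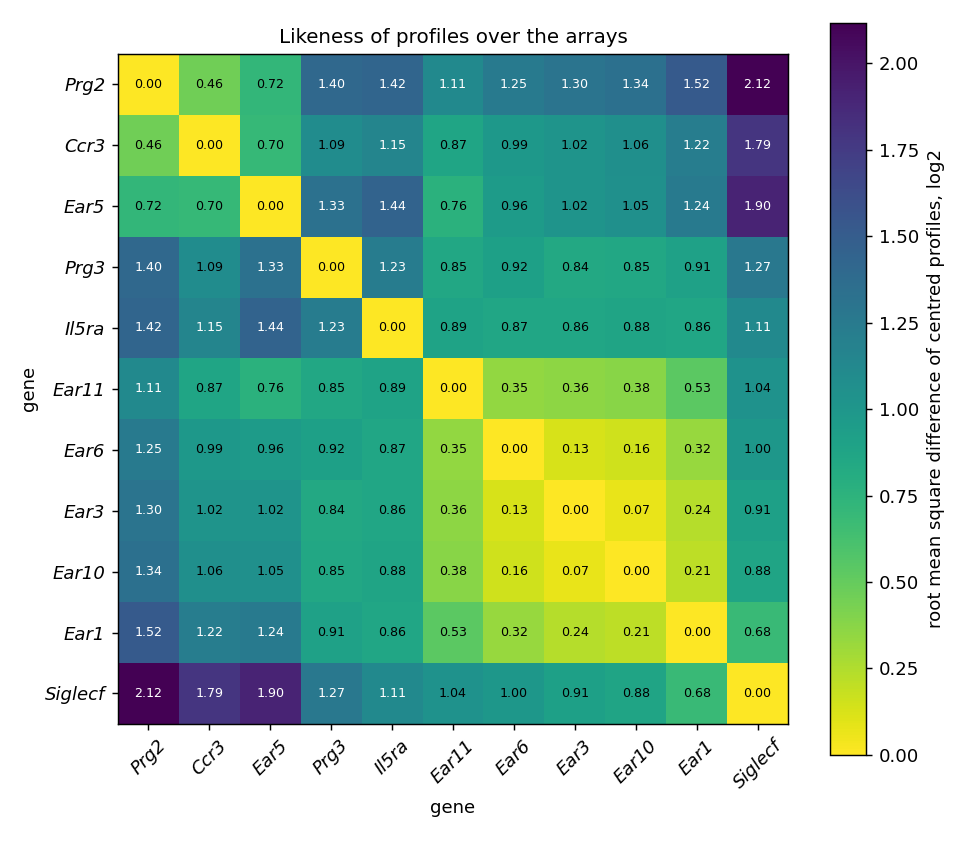
Root mean square difference (log2, colour scale and printed values) between the centred profiles of each pair of genes over the arrays, for the 7 members tested and for Ear3, Ear5, Ear10 and Ccr3. Ear1, Ear3, Ear6 and Ear10 lie within 0.32 of each other, Prg2 is nearest to Ccr3 at 0.46, and Siglecf is farthest from Prg2 at 2.12.

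The comparison of genotypes asked whether loss of Foxa3 changed these genes. After OVA none of the 7 members passed between KO and WT lungs, where 0.213 percent of all genes tested did (limma, with 1 member at an unadjusted p under 0.05 beside 4.94 percent of all genes). That member was Siglecf, which was lower in every KO OVA array than in any WT OVA array, as were 4.42 percent of all genes. Its KO minus WT difference was -0.33 ± 0.13 SE (limma, adjusted p = 0.872), and -0.20, -0.41 and -0.37 within the slides. For Prg2 the KO minus WT difference was 0.64 ± 0.48 SE, with a 95% interval of -0.46 to 1.73, and within slides it was 0.67, 1.99 and -0.75. Without WT OVA 1 it was 0.02. The KO OVA values of Prg2 lay within the range of the WT OVA values. The differences of the other 5 ran from -0.30 for Il5ra to 0.58 for Ear6, with intervals of -1.69 to 1.08 and -0.41 to 1.57. Without WT OVA 1 the difference was -0.49 for Il5ra, 0.24 for Ear6, 0.10 for Ear1, -0.66 for Prg3 and -0.10 for Ear11.

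After saline none of the 7 members passed either, where 0.0951 percent of all genes tested did (limma, with 0 members at an unadjusted p under 0.05 beside 3.23 percent of all genes). KO and WT saline arrays overlapped for all 7, while KO was higher in every array for 11.6 percent of all genes and lower for 10 percent. The differences ran from -0.54 ± 0.68 SE for Il5ra to 1.38 ± 0.73 SE for Prg3, which was not above background in WT saline. Prg2 differed by -0.16, with a 95% interval of -1.38 to 1.06, and Siglecf by -0.04, with an interval of -0.36 to 0.28.

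The OVA differences of the 2 genotypes were then compared with each other. None of the 7 members passed, where 0.00453 percent of all genes tested did (limma, with 0 members at an unadjusted p under 0.05 beside 2.56 percent of all genes). The KO minus WT difference of the OVA differences was 0.79 for Prg2 (95% interval -0.84 to 2.43, and 0.18 without WT OVA 1) and -0.28 for Siglecf (-0.71 to 0.14). The widest interval was that of Prg3, from -3.70 to 0.74. For every member tested except Prg2 the interval reached as far from 0 as the OVA difference itself in at least 1 genotype. A difference of that size between the genotypes thus lay within the interval, with 2 or 3 arrays per group. The intervals do not give the smallest difference that could have been detected.

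**Figure D5:**
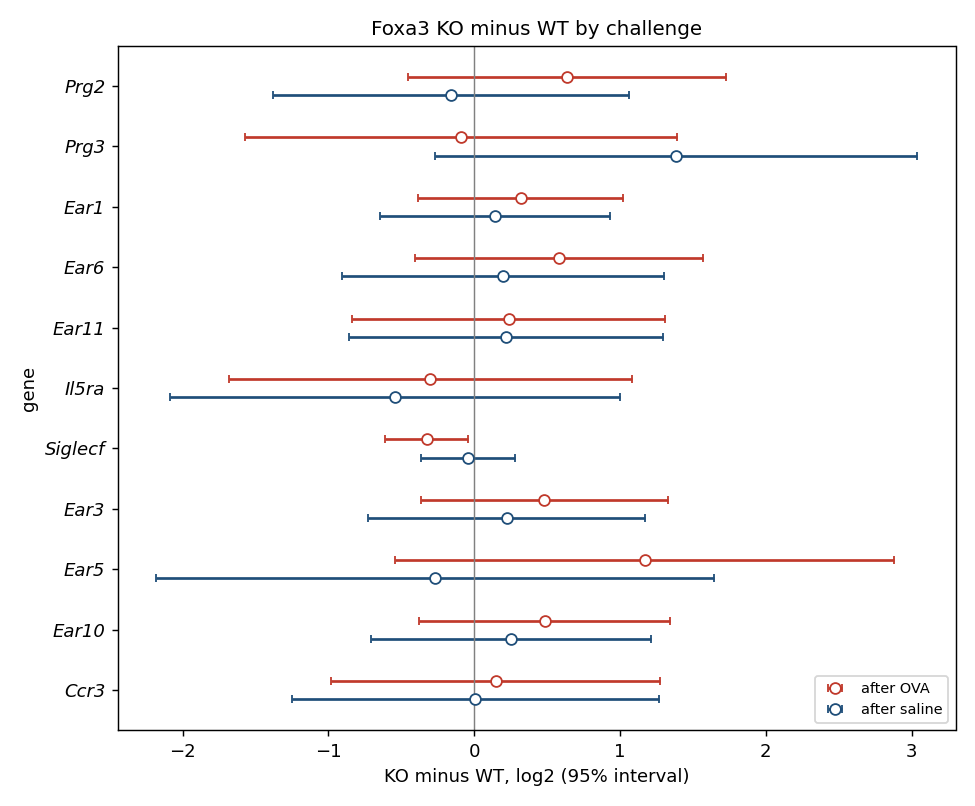
Foxa3 KO minus WT difference (log2, horizontal axis, with 95% interval) after OVA (upper of each pair) and after saline (lower) for the 7 members tested and for Ear3, Ear5, Ear10 and Ccr3. No point is filled, since none passed an adjusted p of 0.05, and every interval holds 0 except that of Siglecf after OVA, which runs from -0.61 to -0.04.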

How the data were processed

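Lung RNA was labelled with Cy3 and hybridised to 60-base Agilent arrays, per the labels' protocols. The authors deposited 1 scanner table per array with spot intensity (background-subtracted processed signal). The file headers name Agilent Feature Extraction 9.5.1.1, whereas the submitters' processing notes name 9.1. The authors also deposited a value table of normalised values, read here as log2. Within each array it ranked the probes nearly as the scanner values did (Spearman correlation 0.992 to 0.997). A rank correlation does not show the scale. The column medians of the value table were all 7.67. How the authors normalised these values before they were deposited is not given in the sources used here.

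The log2 processed signal was scaled to each array's 75th percentile over spots other than controls, spots marked as outliers (48 to 183 per array) were removed, and spots of a probe were averaged. Between 71.7 and 79.3 percent of spots were well above background. A probe entered if 2 or more of the 11 arrays measured it well above background (32948 probes), and the brightest probe stood for each gene (22087 genes). All 4 groups entered 1 group-means model in limma 3.58.1 (R 4.3.3) with moderated tests, and p-values were adjusted by Benjamini-Hochberg over all genes, with a threshold of 0.05. The fit was tested on simulated data. "At least" folds concern a group that was never well above background. Each of its arrays was set at the lowest signal measured above background there, or at its own value if higher. These folds allow for background only and not for the spread between arrays.

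The members and lists were chosen with earlier results of these data known. Text names all members, Foxa3, up to 4 genes per list by smallest p for OVA in WT lungs, the measured Ear genes, and the 4 genes nearest in profile to Prg2, Siglecf and Ear11. Mcpt8 and Cpa3 were named outside this rule. One gene under it is not reported here. Alternatives were other background, scaling, filter and probe rules, slide or replicate as a block, the authors' value table, leaving out each array or slide 1, fitting only the groups compared and, added after seeing the data, keeping marked spots. Replicate numbers did not pair the arrays (correlations of deviations -0.405 to 0.0219). Arrays of 1 slide deviated together between OVA and saline (0.129 to 0.358), but not all did between KO and WT (-0.155 to 0.425), and a slide block took the genes called for OVA to 829 in KO lungs, against 1806 without it, and to 2733 in WT lungs, against 4198. The number of arrays limits the precision.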

Additional observations from a re-analysis of the deposited data

How the results depend on the processing

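The direction of the OVA differences of Prg2 and Siglecf held under all 24 alternatives in both genotypes. Their log2 differences ranged over 2.59 to 4.01 for Prg2 and -0.86 to -0.72 for Siglecf in KO lungs, and over 2.19 to 3.63 for Prg2 and -0.59 to -0.31 for Siglecf in WT lungs. The count of members passing for OVA was 2 in each genotype. When only the groups compared were fitted, a setting with fewer arrays, it was 1 in both. There 1.92 percent of all genes passed in KO lungs and 9.24 percent in WT lungs, against 8.18 and 19 percent in the main fit. Without the arrays of slide 1, which leaves 1 KO saline array, both calls were lost in each genotype, and far fewer of all genes passed. With the replicate number as a block it was 1 in KO lungs, where Siglecf no longer passed (-0.75, adjusted p = 0.0507). Leaving out 1 array gave counts of 0 to 3 in KO lungs and 1 to 4 in WT lungs. In KO lungs it was 0 without KO saline 1, 1 without KO saline 2 or KO OVA 3, and 3 without WT OVA 2. In WT lungs it was 1 without WT saline 1, WT saline 3, WT OVA 2 or WT OVA 3, and 4 without WT OVA 1. With slide as a block Siglecf did not pass in WT lungs (adjusted p = 0.0525) and Prg3 did. Neither genotype comparison nor the difference of OVA differences had a passing member under any alternative run. No test of the difference of OVA differences could be had with only the groups compared.

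Some differences that had not passed changed sign, and the cause was not tested. With normexp background they were Prg3 for OVA in KO lungs (-0.095), Prg2, Il5ra and Siglecf for KO minus WT after saline (0.12, 0.026 and 0.037), and the difference of OVA differences of Il5ra (-0.28). With the authors' value table they were Ear11 for KO minus WT after OVA (-0.86), Siglecf after saline (0.053), and the differences of OVA differences of Ear11 (-0.98) and Il5ra (-0.084). With outlier spots kept, Ear11 gave -0.82 for KO minus WT after OVA and -1.04 for the difference of OVA differences. Without slide 1 these were -0.16 and -0.61, and Siglecf after saline was 0.12. With slide as a block Prg2 after saline was 0.024 and the Ear11 difference of OVA differences -0.34, and with median scaling the last was -0.0024.

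Leaving out 1 array, the ranges of values whose sign changed were as follows. For OVA in KO lungs, Prg3 ran from -0.065 to 0.68 and Il5ra from -0.048 to 2.40. For KO minus WT after OVA, Prg3 ran from -0.66 to 0.31 and Ear11 from -0.10 to 0.77. After saline, Prg2 ran from -0.36 to 0.041, Il5ra from -1.77 to 0.68 and Siglecf from -0.13 to 0.050. The difference of OVA differences ran from -0.12 to 0.47 for Ear1, from -0.32 to 0.55 for Ear11 and from -0.98 to 1.46 for Il5ra. Signal near background limits Prg3, Epx, Il5ra and Ear5.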
